A study of Rattus norvegicus with 39 samples.

Results

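The 9 genes described here are the stress-response factor Nfe2l2 (Nrf2), its inhibitor Keap1, and 7 genes commonly used as readouts of that pathway: Hmox1, Osgin1, Srxn1, Gclc, Gclm, Nqo1 and Txnrd1. They were chosen by gene symbol in the array's annotation and are 9 of 18891 genes read by a probe set with a single symbol. Each was read by 1 of the 23409 probe sets on the array. Levels are log2 intensities, so a difference of 1 is a doubling. The study took livers from young male Wistar rats in 13 groups of 3 arrays, 39 in all. In the operated rats, blood flow to about 70% of the liver was stopped for 30 min by clamping the left and median lobes, and flow was then restored for 0, 0.5, 2 or 6 hr. From each of these 12 rats, the clamped left and medial lobes were hybridized together as 1 array (called reperfused, although at 0 hr no flow had been restored), and the unclamped right lobe as another (non-ischemic). Sham rats of the same 4 times had anesthesia with isoflurane, opening of the abdomen and handling of the liver without any stop in blood flow, and unoperated rats had no surgery. The sources used here name no genetic change in any group, and do not say which lobe was taken from sham and unoperated rats. Surgery began in mid-morning, so reperfusion time and time of day ran together and cannot be told apart.

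Nrf2 is a transcription factor that Keap1 holds in the cytoplasm and delivers to a Cul3 and Rbx1 ubiquitin ligase for breakdown. Oxidants and electrophiles modify Keap1, and Nrf2 then accumulates, pairs with a small Maf protein and binds antioxidant response elements, a site that the repressor Bach1 also occupies until heme removes it. Nrf2 itself is controlled largely as a protein, so its RNA is not a measure of its activity. In the liver its targets make glutathione, recycle thioredoxin, reduce quinones and degrade heme.

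Median intensities of the 39 arrays lay between 39.6 and 43.6. All 7 hepatocyte markers were bright: Hnf4a had group means of 14.62 to 15.65 and Tat of 16.69 to 19.36, while Alb, at 19.87 to 19.93, lay at the top of the scale and could not show a change in hepatocyte content. A total of 3 arrays stood apart on other markers. Reperfused 6 hr replicate 3 had a cholangiocyte marker sum of 11.40 against 8.22 and 8.82 in the other reperfused 6 hr arrays and a neutrophil marker sum of 9.20 against 7.52 and 7.45. The cholangiocyte sum was mostly Epcam, which reached 11.30 in reperfused lobes of 6 hr. The highest values there of Krt7, Krt19, Sox9 and Cftr were 4.29, 5.84, 6.26 and 4.49. Non-ischemic 6 hr replicate 1 had a neutrophil sum of 8.98 against 7.39 and 7.32 in its group, and reperfused 0.5 hr replicate 1 had 8.45 against 7.45 and 6.94. Calls of the 9 genes against shams in these groups are given with and without them. Since whole tissue was measured, fewer cells of a type and less RNA per cell cannot be told apart.

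Hmox1, the inducible heme oxygenase, reached its highest levels in both lobes at 2 hr. Its levels were 13.19, 13.94 and 14.23 in reperfused lobes, 13.65, 13.30 and 12.61 in non-ischemic lobes of the same rats, 11.58, 12.18 and 10.32 in the 2 hr shams, and 8.77, 8.79 and 7.96 in unoperated livers. Every lobe array of 2 hr was above the highest of the 12 shams, at 12.18, and every sham was above the highest unoperated liver. At 0 hr the levels were 9.67, 9.60 and 9.13 in reperfused lobes, 9.29, 9.33 and 9.04 in non-ischemic lobes and 9.38, 9.15 and 9.83 in the shams, and these 3 groups overlapped. At 0.5 hr the reperfused lobes, at 10.07, 9.43 and 9.69, lay above the non-ischemic lobes, at 9.35, 9.08 and 9.26, and overlapped the shams, at 9.01, 9.48 and 9.23. By 6 hr the levels were 11.31, 11.20 and 13.47 in reperfused lobes, where replicate 3 was the highest. The non-ischemic lobes of 6 hr had 11.18, 10.43 and 11.38 and the 6 hr shams 11.17, 11.70 and 10.37, which again overlapped.

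Against the 12 shams pooled over time, Hmox1 was higher by 3.50 in reperfused lobes at 2 hr (standard error 0.629, an 11.3-fold difference, adjusted p = 0.00377) and by 2.90 in non-ischemic lobes (standard error 0.628, 7.49-fold, adjusted p = 0.0161). The second call was lost without non-ischemic replicate 1 or 2 (adjusted p of up to 0.0913). The shams themselves changed with time, with 2 and 6 hr arrays above the 0 and 0.5 hr arrays (moderated F-test over the 4 times, adjusted p = 0.0173). Set against the 2 hr shams alone, the differences were 2.43 (adjusted p = 0.118) in reperfused and 1.83 (adjusted p = 0.337) in non-ischemic lobes, so neither passed. The difference between the lobes at 2 hr was 0.60 (standard error 0.351, adjusted p = 0.920). Within the rat, the reperfused lobe was the higher of the pair in 11 of 12 animals, with differences between −0.46 and 2.09, and the mean difference of 0.59 did not pass (adjusted p = 0.168, standard error 0.182). Markers of macrophages and Kupffer cells, which also express Hmox1, had sums of 15.35 to 15.67 in reperfused lobes and 15.32 to 15.71 in non-ischemic lobes at 2 hr, against 14.95 to 15.59 for 2 hr shams. Of these, 0 of 10 passed against the pooled shams in either lobe, beside 6.89% of all probe sets in reperfused and 6.84% in non-ischemic lobes. Some markers of other cell types passed at 2 hr, beside the same shares. In reperfused lobes 2 of 5 cholangiocyte markers were higher than in pooled shams, with sums of 8.61 to 9.07 against 7.88 to 8.25. Stellate cell and fibroblast markers had sums of 12.83 to 13.05 in reperfused lobes against 13.45 to 14.68 in shams, with 1 of 7 lower, and 1 of 7 endothelial markers was lower too. Lrat, the brightest stellate cell marker, had a group mean of 11.56 in these reperfused lobes against 13.10 to 13.55 in the sham groups. Means of Des, Dcn, Col1a1, Col3a1, Reln and Acta2 lay within the range of the sham group means. In non-ischemic lobes 1 of 7 stellate cell markers was lower and 1 of 7 red cell and platelet markers higher. Their part in the 2 hr differences was not tested. At 6 hr Hmox1 in reperfused lobes differed from pooled shams by 1.71 (adjusted p = 0.108), and by 0.97 without replicate 3 (adjusted p = 0.500). Time mattered within both lobes for this gene (adjusted p = 0.00164 for reperfused, or 0.000135 without 6 hr replicate 3, and 0.000138 for non-ischemic).

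**Figure D1:**
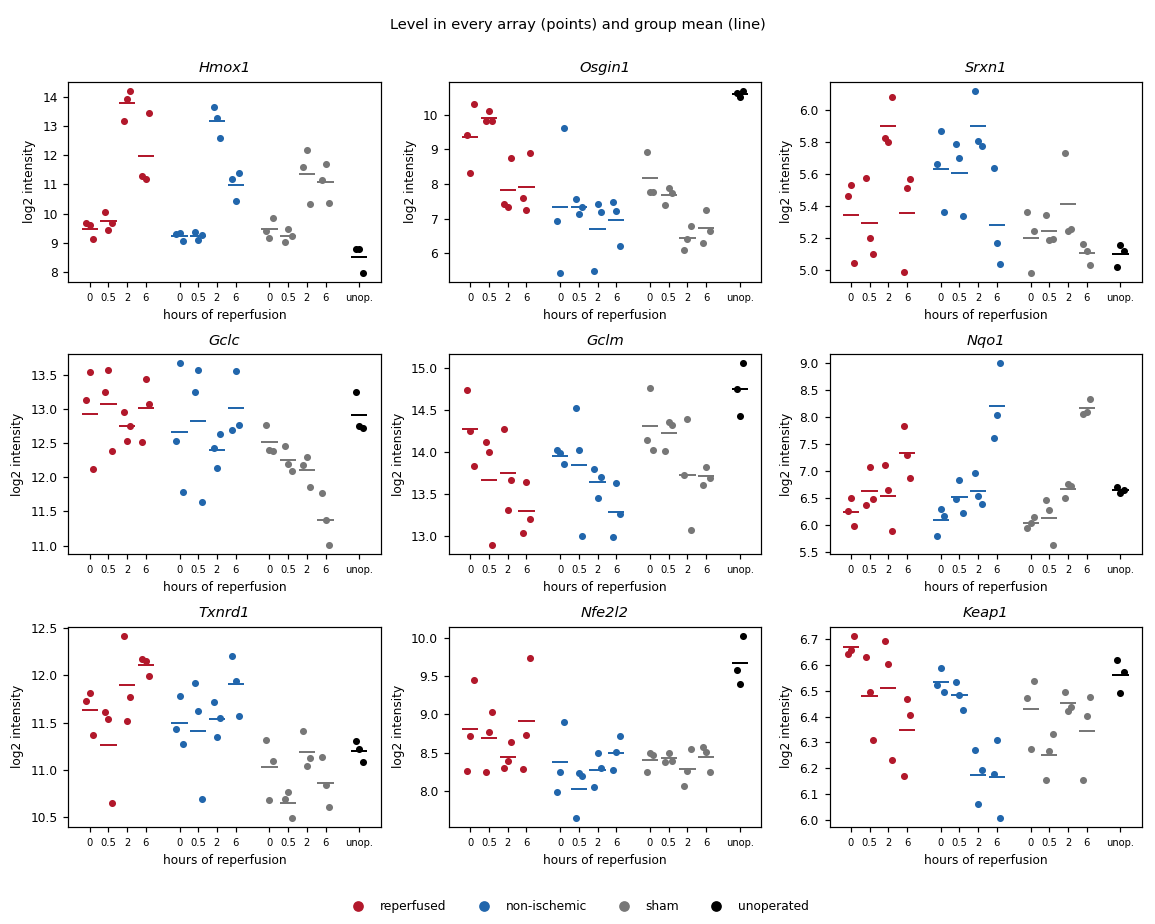
Log2 intensity (vertical axis) of each of the 9 genes in every array, by hours of reperfusion, for reperfused lobes, non-ischemic lobes, shams and unoperated livers (unop.). Points are arrays, 3 a group, and lines are group means. Hmox1 peaked at 2 hr in both lobes, at group means of 13.79 and 13.19, and Osgin1 was highest in unoperated livers, at 10.62.

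Ordered by group mean, Hmox1 ran from 13.79 in reperfused lobes at 2 hr and 13.19 in non-ischemic lobes at 2 hr, through 11.99 (reperfused, 6 hr), 11.36 (sham, 2 hr), 11.08 (sham, 6 hr) and 10.996 (non-ischemic, 6 hr), to a lower block of 9.73 to 9.22 that held all lobes and shams of 0 and 0.5 hr, with unoperated livers last at 8.51. Only 2 of the 12 steps between neighbours in that order separated arrays that did not overlap: the step down from the non-ischemic lobes of 6 hr and the step down to unoperated livers.

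Srxn1, the sulfiredoxin that restores overoxidized peroxiredoxins, and Txnrd1, the cytosolic thioredoxin reductase, passed with Hmox1 at 2 hr. Their promoters are shown here because both genes passed in both lobes, and Gclm is shown because its promoter carries the same kind of match while its level passed in no comparison of a lobe with shams. RefSeq promoter windows of assembly GRCr8 run from 250 bases before to 50 after an annotated start and matched 8 of the 9 genes (Hmox1 was not matched). For Txnrd1, Nfe2l2, Osgin1 and Gclc that start lies inside the span of the gene, not at its outer end. Capitals mark antioxidant response element cores (TGACNNNGC or TGAGNNNGC) and AP-1 sites (TGANTCA), each sought on both strands. A core and an AP-1 site share their bases at 1 place in Srxn1. Txnrd1 had a second window, without a match.
Srxn1, chr3:161064562-161064861, plus strand: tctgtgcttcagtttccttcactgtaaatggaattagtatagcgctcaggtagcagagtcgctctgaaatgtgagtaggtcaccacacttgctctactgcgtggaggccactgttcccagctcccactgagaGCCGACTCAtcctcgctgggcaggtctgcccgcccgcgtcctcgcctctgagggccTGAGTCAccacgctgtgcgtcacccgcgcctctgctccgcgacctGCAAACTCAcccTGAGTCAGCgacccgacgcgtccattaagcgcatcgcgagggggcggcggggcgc
Txnrd1, chr7:22755855-22756154, minus strand: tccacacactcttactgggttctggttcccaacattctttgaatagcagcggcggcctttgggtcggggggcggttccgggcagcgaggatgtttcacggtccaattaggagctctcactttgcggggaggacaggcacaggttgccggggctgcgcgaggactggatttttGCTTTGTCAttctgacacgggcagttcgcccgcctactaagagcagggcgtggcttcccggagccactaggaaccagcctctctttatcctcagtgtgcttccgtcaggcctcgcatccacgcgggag
Gclm, chr2:213031885-213032184, plus strand: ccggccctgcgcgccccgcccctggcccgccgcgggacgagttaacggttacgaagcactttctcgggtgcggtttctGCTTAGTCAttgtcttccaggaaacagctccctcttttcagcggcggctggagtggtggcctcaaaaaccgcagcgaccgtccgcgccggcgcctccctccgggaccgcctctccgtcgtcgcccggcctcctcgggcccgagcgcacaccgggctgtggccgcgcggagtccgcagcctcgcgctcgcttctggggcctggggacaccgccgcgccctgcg
A core was found in 4 of the 8 genes: Srxn1 (3 places, at −118, −17 and −5 from the annotated start), Txnrd1 (at −78), Gclm (at −172) and Nfe2l2 (at 38). AP-1 sites were found in Srxn1 alone, at 2 places. Of all 33469 promoter windows, 27.1% held a core of either form and 7.33% an AP-1 site. These are matches of letters in a short window and no measure of binding.

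Srxn1 was dim throughout, between 4.98 and 6.12. At 2 hr it was 5.82, 5.80 and 6.08 in reperfused lobes and 6.12, 5.80 and 5.77 in non-ischemic lobes, above all 12 shams, whose range was 4.98 to 5.73. Both lobes were 0.66 above the pooled shams, a 1.58-fold difference (adjusted p = 0.00345 reperfused, 0.0077 non-ischemic). Against 2 hr shams, at 5.73, 5.24 and 5.25, the difference of 0.49 in each lobe did not pass (adjusted p = 0.284 reperfused, 0.410 non-ischemic). Unoperated livers had 5.02, 5.16 and 5.12. The non-ischemic call was lost without non-ischemic replicate 1 (adjusted p = 0.0619). The reperfused lobe was the higher of the pair in 3 of 12 rats.

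Txnrd1 stood above the shams at both late times. At 2 hr it was 12.42, 11.52 and 11.77 in reperfused lobes and 11.72, 11.35 and 11.55 in non-ischemic lobes, against 11.41, 11.04 and 11.13 in the 2 hr shams. At 6 hr it was 12.17, 12.16 and 11.995 in reperfused lobes, 12.21, 11.94 and 11.56 in non-ischemic lobes and 11.13, 10.84 and 10.61 in the shams. At 6 hr both lobe groups were clear of all 12 shams, which ranged from 10.49 to 11.41. The differences from pooled shams at 2 hr were 0.97 in reperfused lobes (standard error 0.198, adjusted p = 0.00857) and 0.61 in non-ischemic lobes (standard error 0.171, adjusted p = 0.0444). Those at 6 hr were 1.18 in reperfused lobes (standard error 0.167, 2.26-fold, adjusted p = 0.000304, or 1.23 and 0.00126 without replicate 3) and 0.97 in non-ischemic lobes (standard error 0.182, 1.97-fold, adjusted p = 0.00283, or 0.82 and 0.0372 without replicate 1). The differences of 6 hr also passed against the 6 hr shams alone, at 1.25 in reperfused lobes (adjusted p = 0.00933, or 0.00914 without replicate 3) and 1.05 in non-ischemic lobes (adjusted p = 0.0335), and the last call was lost without replicate 1 (difference 0.90, adjusted p = 0.0769). Those of 2 hr did not pass against 2 hr shams (adjusted p = 0.297 reperfused, 0.465 non-ischemic). The 2 hr call in reperfused lobes was lost without replicate 1 (difference 0.71, adjusted p = 0.0826), and the 2 hr call in non-ischemic lobes was lost when any 1 of 11 of the 15 arrays was left out (adjusted p of up to 0.206), and was kept when the array left out was replicate 1 of the 0 or 6 hr shams, or replicate 1 or 3 of the 2 hr shams.

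Across the 9 genes, 3 passed in reperfused lobes at 2 hr against pooled shams, all higher, beside 6.89% of all probe sets called in that comparison. The same 3 passed in non-ischemic lobes, all higher, beside 6.84%. Against the 2 hr shams limma called 0 in each lobe (5 in reperfused and 4 in non-ischemic lobes at an unadjusted p under 0.05), beside 0.726% of probe sets for reperfused and 0.0% for non-ischemic lobes. The pooled shams are shared by every one of these comparisons, so the lobes do not give independent results.

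The glutathione genes gave a different picture, which turned on the shams. Gclc, the catalytic subunit of the enzyme that limits glutathione synthesis, was 12.51, 13.43 and 13.07 in reperfused lobes at 6 hr, 12.70, 13.56 and 12.76 in non-ischemic lobes, and 11.76, 11.37 and 11.01 in the 6 hr shams. All 6 hr shams lay below the 9 earlier shams, which ranged from 11.85 to 12.76, and below every lobe array of 6 hr. Gclc was lower in 6 hr shams than in earlier ones (difference −0.91, standard error 0.177, adjusted p = 0.0103), and that call was lost without replicate 2 or 3 of the 6 hr shams (adjusted p of up to 0.0703). Both lobes of 6 hr were 0.94 above the pooled shams (adjusted p = 0.0392 reperfused, 0.0460 non-ischemic) and 1.63 above the 6 hr shams (3.09-fold each, adjusted p = 0.0236 reperfused, 0.0277 non-ischemic). Without reperfused replicate 3 the difference from 6 hr shams was 1.59 (adjusted p = 0.0350), and without non-ischemic replicate 1 it was 1.78 and did not pass (adjusted p = 0.0529). With quantile normalization Gclc passed against pooled shams in neither lobe (adjusted p = 0.0609 reperfused, 0.0611 non-ischemic). Nor did it pass against 6 hr shams with the replicate block (adjusted p = 0.0718 and 0.0528). That block joins lobes and shams by number alone, and these are different rats, so it pairs no animal. The calls against pooled shams were near the threshold: leaving out 1 array ended the call for 6 of 15 arrays in the reperfused comparison (sham 0.5 hr replicates 2 and 3, sham 2 hr replicate 3, sham 6 hr replicate 1, reperfused replicates 2 and 3; adjusted p of up to 0.207, and 0.126 without replicate 3). In the non-ischemic comparison 11 of 15 arrays did so (adjusted p of up to 0.279, and 0.0900 without replicate 1), all but sham 0 hr replicates 1 and 3, sham 0.5 hr replicate 1 and sham 6 hr replicate 3. Earlier, Gclc ranged from 12.11 to 13.56 in the 9 reperfused arrays of 0 to 2 hr and from 11.64 to 13.67 in the 9 non-ischemic ones, and no comparison of these with shams passed. Unoperated livers had Gclc at 13.25, 12.75 and 12.72, within the range of the 6 hr lobes and above the 6 hr shams.

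Gclm, the regulatory subunit of the same enzyme, followed another course. It was 13.03, 13.64 and 13.19 in reperfused lobes at 6 hr, 12.98, 13.62 and 13.25 in non-ischemic lobes and 13.61, 13.82 and 13.69 in the 6 hr shams, against 14.75, 14.43 and 15.06 in unoperated livers. Its differences from pooled shams at 6 hr were −0.70 in each lobe and did not pass (adjusted p = 0.0814 reperfused, 0.0901 non-ischemic). The 0.5 hr replicate 3 rat had the lowest 0.5 hr level in both lobes for Gclc (12.39 reperfused, 11.64 non-ischemic), Gclm (12.88 and 12.99) and Txnrd1 (10.65 and 10.69).

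Nqo1, a quinone reductase often taken as a marker of Nrf2 activity, had its highest group mean at 6 hr in reperfused lobes, non-ischemic lobes and shams. Its levels at 6 hr were 7.84, 7.30 and 6.87 in reperfused lobes, 7.61, 8.03 and 8.998 in non-ischemic lobes, and 8.05, 8.10 and 8.34 in the shams. Unoperated livers had 6.71, 6.59 and 6.65. The earlier shams lay between 5.63 and 6.77, and the 6 hr shams exceeded them by 1.88 (standard error 0.212, 3.69-fold, adjusted p = 0.000538). Against the 6 hr shams the non-ischemic lobes differed by 0.05 (adjusted p = 0.953), and the reperfused lobes by −0.83 with no overlap of the arrays (adjusted p = 0.0926). Against the pooled shams the same lobes gave 1.46 (adjusted p = 0.0845) for non-ischemic and 0.59 (adjusted p = 0.494) for reperfused lobes, where the choice of shams turned the sign. Without replicate 3 the last value was 0.82 (adjusted p = 0.485), and that against 6 hr shams −0.59 (adjusted p = 0.0999). The largest difference between the lobes of 1 rat, −2.13, was at 6 hr in the animal of replicate 3.

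At 6 hr, 2 of the 9 genes, Gclc and Txnrd1, passed in reperfused lobes against pooled shams, both higher, beside 16.6% of probe sets, and the same 2 in non-ischemic lobes, beside 13.6%. Against the 6 hr shams the same 2 passed in each lobe, beside 9.68% and 7.45%, or 0 in non-ischemic lobes without replicate 1. Comparing 6 hr shams with earlier shams called 1 higher (Nqo1) and 1 lower (Gclc), beside 6.27%. Neutrophil markers also moved at that time: 3 of 6 were higher in reperfused lobes, 1 in non-ischemic lobes and 3 in the 6 hr shams, each against its set of shams, with sums of 7.45 to 9.20 in reperfused lobes, 7.32 to 8.98 in non-ischemic lobes and 7.25 to 7.64 in 6 hr shams. The 9 earlier shams had sums of 6.79 to 7.08. The brightest of the 6, S100a9, had group means of 4.60 to 6.67, at the dim end of the scale. Of 7 hepatocyte markers, 2 were lower in reperfused and 1 in non-ischemic lobes at 6 hr. Their part in the 6 hr differences was not tested.

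**Figure D2:**
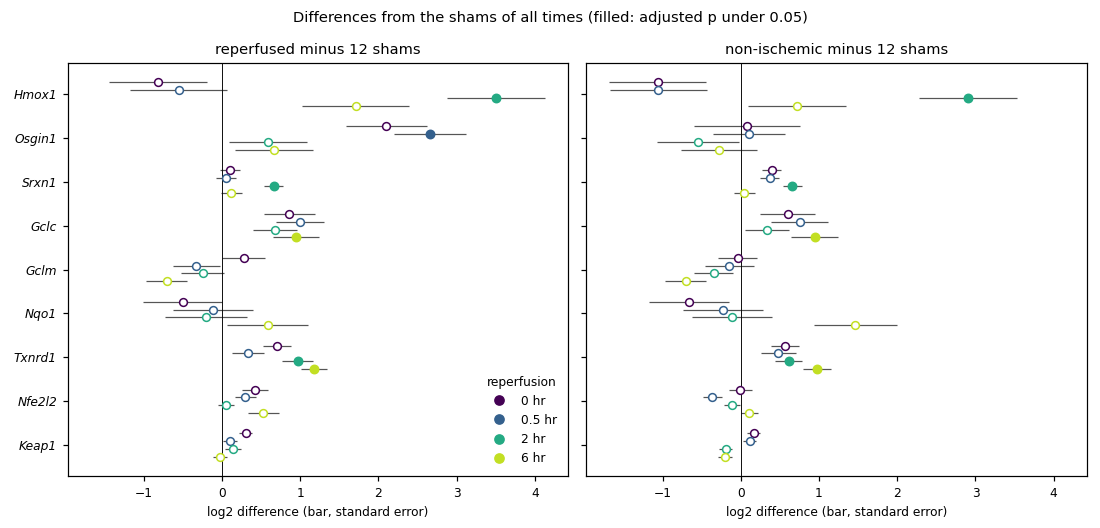
Log2 difference (horizontal axis, with standard error) of reperfused lobes and of non-ischemic lobes from the 12 shams of all times, for each gene at 4 times of reperfusion. Filled points passed an adjusted p of 0.05: Hmox1, Srxn1 and Txnrd1 at 2 hr and Gclc and Txnrd1 at 6 hr in both lobes, and Osgin1 at 0.5 hr in reperfused lobes.

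Osgin1, whose product restrains growth and promotes cell death under oxidative stress, was the only one of the 9 genes to pass between the lobes of 1 time, at 0.5 hr. It was 9.82, 10.11 and 9.81 in reperfused lobes against 7.56, 7.14 and 7.35 in non-ischemic lobes, without overlap. The 0.5 hr shams, at 7.39, 7.88 and 7.74, were near the non-ischemic lobes, and unoperated livers, at 10.62, 10.53 and 10.70, were above all lobe and sham arrays. The difference between the lobes was 2.57 (standard error 0.142, 5.92-fold, adjusted p = 0.00572), or adjusted p = 0.0104 with the animal as a block. In that comparison 1 of the 9 genes was called, Osgin1, higher, beside 0.0513% of probe sets, or 0.384% with the block. The call was lost without non-ischemic replicate 3 (adjusted p = 0.0541) and in a fit to all 39 arrays (adjusted p = 0.203).

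Against pooled shams, Osgin1 in reperfused lobes at 0.5 hr was higher by 2.66 (standard error 0.459, 6.34-fold, adjusted p = 0.0116), and 1 of the 9 genes was called beside 1.05% of probe sets. Against the 0.5 hr shams the difference was 2.24 (adjusted p = 0.00223, or 2.29 and 0.00854 without replicate 1), beside 4.57%. The call against pooled shams was lost without reperfused replicate 1 or 2 (adjusted p of up to 0.0645), replicate 1 being the array with the high neutrophil sum. In non-ischemic lobes of 0.5 hr limma called 0 of 9 against pooled shams (3 at an unadjusted p under 0.05), beside 0.376%. Of 7 red cell and platelet markers, 2 were higher in reperfused lobes at 0.5 hr than in pooled shams, Pf4 (difference 3.11) and Gp9 (0.87). For each of the 7, replicate 1 was the highest of its group. Pf4 was 12.31, 7.95 and 7.82 there against 5.96 to 6.82 in the 12 shams. Alas2 (14.43, 10.84 and 9.60 against 7.95 to 10.12) and Slc4a1 (12.87, 8.11 and 8.50 against 6.21 to 7.87) did not pass. Their part in the Osgin1 difference was not tested.

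The spread of Osgin1 at 0 hr was wide. It was 9.43, 8.31 and 10.31 in reperfused lobes, 6.95, 5.44 and 9.61 in non-ischemic lobes and 8.93, 7.78 and 7.77 in the shams. The third rat was high in both lobes. Neither the difference between the lobes of 0 hr (2.02, adjusted p = 0.9999) nor that from pooled shams (2.10, adjusted p = 0.167) passed, and limma called 0 of the 9 genes at 0 hr in any of these comparisons (at an unadjusted p under 0.05, 0 between the lobes or 4 with the animal as a block, 5 for reperfused and 2 for non-ischemic lobes against pooled shams), beside 0.0% of probe sets between the lobes, 0.0128% for the reperfused and 0.00854% for the non-ischemic lobes. Later, Osgin1 was 7.42, 7.34 and 8.76 in reperfused and 5.48, 7.42 and 7.20 in non-ischemic lobes of 2 hr. At 6 hr it was 7.60, 7.26 and 8.89 in reperfused and 7.48, 7.22 and 6.21 in non-ischemic lobes. The shams of 2 hr had 6.11, 6.41 and 6.80 and those of 6 hr 6.29, 7.25 and 6.64, below every reperfused array of the same time. Between the lobes limma called 0 of 9 genes at 2 hr and 0 at 6 hr (0 and 0 at an unadjusted p under 0.05, or 4 and 0 with the animal as a block), beside 0.0128% and 0.0% of probe sets.

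Nfe2l2, the factor, lay between 7.64 and 10.04 in all 39 arrays, a wider span than that of its inhibitor Keap1. Nfe2l2 in reperfused lobes was 8.26, 8.72 and 9.46 at 0 hr, then 8.24, 8.77 and 9.04 at 0.5 hr. It was 8.30, 8.38 and 8.63 there at 2 hr and finally 8.28, 8.73 and 9.74 at 6 hr. The non-ischemic lobes had 7.99, 8.25 and 8.91 at 0 hr, then 7.64, 8.23 and 8.19 at 0.5 hr. They had 8.05, 8.49 and 8.29 at 2 hr and finally 8.27, 8.51 and 8.71 at 6 hr. The 12 shams lay between 8.06 and 8.57, all below unoperated livers, at 9.59, 9.39 and 10.04. The reperfused groups overlapped the pooled shams at every time, and the highest of the 24 lobe values, 9.74, was again reperfused 6 hr replicate 3. Keap1, the adaptor that targets Nrf2 for breakdown, stayed between 6.01 and 6.71 in all 39 arrays. Its highest group mean was in reperfused lobes at 0 hr, with 6.64, 6.66 and 6.71, against 6.52, 6.59 and 6.49 in non-ischemic lobes and 6.47, 6.27 and 6.54 in the shams. Neither gene passed in a comparison of a lobe with pooled shams. Keap1 changed with time in non-ischemic lobes (range of group means 0.37, adjusted p = 0.0244), where the arrays of 2 hr, at 6.27, 6.06 and 6.19, and of 6 hr, at 6.18, 6.31 and 6.01, lay below the earlier ones. That call was lost without non-ischemic 0 hr replicate 1 or 2 or 6 hr replicate 1 (adjusted p of up to 0.0585).

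The 2 lobes of each rat, taken as those of 1 time and replicate number, allow a comparison within the animal over all 12 rats. Osgin1 was higher in the reperfused lobe in 11 of 12 rats, with differences between −0.08 and 2.98 and a mean of 1.67 (standard error 0.273, adjusted p = 0.0232, or 1.45 and 0.0169 without the rat of 6 hr replicate 3). Nfe2l2 was higher in 11 of 12 rats, with differences between −0.10 and 1.02 and a mean of 0.42 (standard error 0.0809, adjusted p = 0.0372). Of all probe sets 1.2% were called in either direction, 0.658% of all were called higher in the reperfused lobe, and 1.73% were higher there in at least 11 of 12 rats, as Hmox1, Osgin1 and Nfe2l2 were. Leaving out 1 rat ended the Osgin1 call for 4 of 12 rats, replicates 1 and 2 of 0 hr and of 0.5 hr (adjusted p of up to 0.0660), and the Nfe2l2 call for 10 of 12 (adjusted p of up to 0.0929), all but 6 hr replicates 1 and 3, the last of which gave the reperfused array that stood apart (mean 0.34 without that rat, adjusted p = 0.0210). With a trended robust fit neither passed (adjusted p = 0.336 for Osgin1 and 0.249 for Nfe2l2). Keap1 was higher in 10 of 12 rats, with a mean difference of 0.16 that did not pass (adjusted p = 0.177). For the other genes the reperfused lobe was the higher in 3 of 12 rats (Srxn1), 5 (Gclm), 7 (Nqo1) or 8 (Gclc and Txnrd1). The lobe difference did not change detectably with time for any of the 9 genes (lowest adjusted p = 0.567, 0 called by limma and 0 at an unadjusted p under 0.05, beside 0.239% of probe sets).

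**Figure D3:**
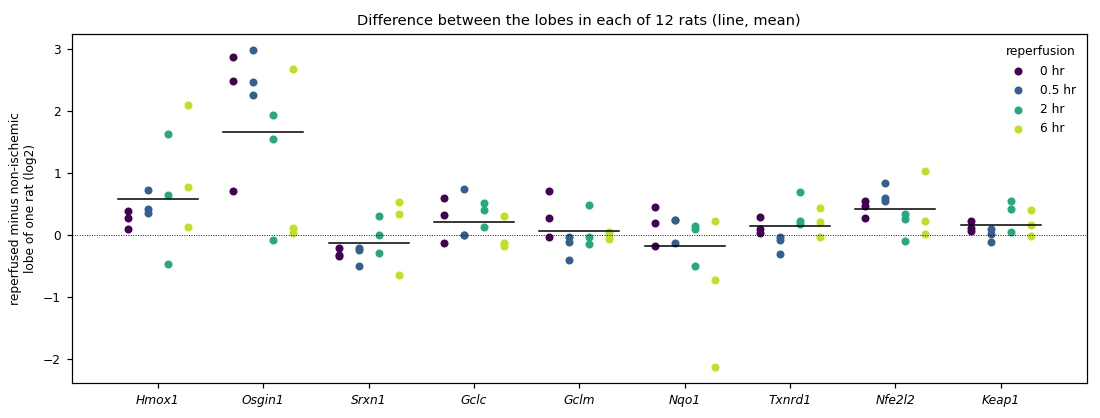
Difference in log2 intensity between both lobes of 1 rat, reperfused minus non-ischemic (vertical axis), for each gene, colored by hours of reperfusion. Each point is 1 of 12 rats and each line the mean, and points above the dotted line are higher in the reperfused lobe. Osgin1 had the largest mean, 1.67, and Nfe2l2 was above the line in 11 of 12 rats.

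The shams also differed from livers without surgery. Compared with unoperated livers, the 12 shams had lower Osgin1 (difference −3.37, standard error 0.457, adjusted p = 0.00384), and lower Nfe2l2 (difference −1.28, standard error 0.121, adjusted p = 0.000475), with no overlap of arrays for either gene. In that comparison 2 of 9 passed, both lower, beside 1.25% of probe sets called and 2.22% with all shams below the unoperated livers. Osgin1 and Nfe2l2 were also lower in the shams of each of the 4 times alone (highest adjusted p = 0.0395 for Nfe2l2 and 0.0366 for Osgin1, both at 0 hr), a split chosen after seeing the data. In the shams of 0 hr alone 3 of 9 passed, beside 1.15% of probe sets, and the third was Nqo1 (difference −0.61, adjusted p = 0.0399). In those of 0.5 hr 3 passed, beside 3.28%, with Txnrd1 lower (difference −0.55, adjusted p = 0.0443), and in those of 2 hr 3, beside 3.49%, with Hmox1 higher by 2.85 (adjusted p = 0.0374). In the 6 hr shams alone 6 of 9 passed, beside 12.1% of probe sets. Hmox1 was higher by 2.57 (adjusted p = 0.00746) and Nqo1 by 1.51 (adjusted p = 0.000787), while Osgin1 (difference −3.89), Gclc (−1.53), Gclm (−1.04) and Nfe2l2 (−1.23) were lower. Within the shams, the times differed for 4 of 9 genes, Hmox1, Osgin1, Gclc (adjusted p = 0.0575 without sham 6 hr replicate 2) and Nqo1, beside 14.5% of probe sets. Within reperfused lobes they differed for 1, Hmox1, beside 15.6%, and within non-ischemic lobes for 3, Hmox1, Nqo1 and Keap1, beside 15.5%.

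The genes around the pathway were counted from lists of its partners, targets and neighbours. Of 11 measured Nrf2 regulators and partners, 2 were higher and 0 lower in reperfused lobes at 2 hr than in pooled shams, with a median difference of 0.13 over the list and −0.01 over all probe sets, of which 6.89% passed. Both were small Maf proteins, which pair with Nrf2 or Bach1 on the antioxidant response element: Mafk, higher by 0.78 (adjusted p = 0.000521, or 0.146 against 2 hr shams), and Maff, by 0.71 (adjusted p = 0.0122). Maff peaked earlier, at 6.48, 5.73 and 5.76 in reperfused and 6.51, 6.01 and 6.18 in non-ischemic lobes of 0.5 hr, against 4.25 to 5.26 in the 12 shams. Its differences were 1.29 in the reperfused (adjusted p = 0.00245, or 0.0634 against 0.5 hr shams) and 1.53 in non-ischemic lobes (adjusted p = 0.000286, or 0.0163 against 0.5 hr shams). Bach1, the heme-sensing repressor of Hmox1, was low at 6 hr in all 3 kinds of operated sample. Its 6 hr levels were 9.47, 9.29 and 10.14 in reperfused lobes, 9.63, 9.33 and 9.76 in non-ischemic lobes and 10.05, 10.17 and 10.15 in the shams. Unoperated livers had 10.56 to 10.71, nearer the 6 hr shams than the earlier shams, whose group means were 11.45 at 0 hr, 12.33 at 0.5 hr and 12.17 at 2 hr. Bach1 had 2 probe sets, and values are from the one with the higher mean. The 6 hr shams were lower than earlier shams (difference −1.86, adjusted p = 0.00528). Against pooled shams the 6 hr differences were −1.89 in the reperfused (adjusted p = 0.0278) and −1.94 in non-ischemic lobes (adjusted p = 0.0269), and against 6 hr shams they were −0.49 (adjusted p = 0.226) and −0.55 (adjusted p = 0.0496). Rbx1, a part of the Keap1 ligase, was higher by 0.78 in reperfused lobes at 6 hr than in pooled shams (adjusted p = 0.000397). It was 8.04 to 8.39 in these lobes against 7.44 to 7.58 in the 6 hr shams.

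Of 12 measured genes for glutathione, thioredoxin and NADPH supply, 1 was higher and 1 lower in reperfused lobes at 2 hr, beside 6.89% of probe sets. The higher one was Slc7a11, the cystine transporter that feeds glutathione synthesis, at 8.27, 4.94 and 4.89 against 3.78 to 4.29 in the 12 shams, where its probe set was dim. Its difference of 2.00 (adjusted p = 0.0188, or 0.423 against 2 hr shams) was largest in replicate 1 and was 0.88 without it (adjusted p = 0.00359). At 6 hr 2 were higher and 1 lower in reperfused lobes than in pooled shams, beside 16.6%. Gss, the second enzyme of glutathione synthesis, was higher by 1.01 (adjusted p = 0.00958, or 0.65 and 0.0469 against 6 hr shams), and Idh1, a source of NADPH, was lower (difference −1.09, adjusted p = 0.000461). Me1, the malic enzyme that also makes NADPH, was lower in shams than in unoperated livers (difference −1.45, adjusted p = 0.0149).

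Of 15 measured genes for conjugation, reduction and export, 0 passed against the pooled shams in either lobe at 2 hr, beside 6.89% of probe sets in reperfused and 6.84% in non-ischemic lobes. At 6 hr 1 was higher and 1 lower in reperfused lobes, beside 16.6% of probe sets, and 2 were higher and 3 lower in non-ischemic lobes, beside 13.6%. Abcc2, the canalicular exporter of glutathione conjugates and bilirubin, had the largest differences at 6 hr among those of the list that passed. It was 13.19, 13.72 and 15.55 in reperfused lobes and 13.22, 13.03 and 15.07 in non-ischemic lobes of 6 hr, against 15.60 to 17.13 in the 12 shams. The differences were −2.38 (adjusted p = 0.000914) and −2.77 (adjusted p = 0.00049), and against the 6 hr shams −1.77 (adjusted p = 0.126) and −2.15 (adjusted p = 0.0647). Akr1b8, an aldo-keto reductase whose probe set was dim in shams, was higher by 1.25 in non-ischemic lobes of 6 hr (adjusted p = 0.0263, or 0.175 against 6 hr shams), and Ephx1, a microsomal epoxide hydrolase, was lower (difference −0.83, adjusted p = 0.0186, or 0.159 against 6 hr shams). Gsta3, a glutathione transferase, was lower in shams than in unoperated livers (difference −1.24, adjusted p = 0.0247).

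Of 12 measured genes for heme and iron handling, 0 passed in reperfused lobes at 2 hr and 1 in non-ischemic lobes, beside 6.89% and 6.84% of probe sets. At 6 hr 1 was higher and 2 lower in reperfused lobes, and 1 higher and 1 lower in non-ischemic lobes, beside 16.6% and 13.6% of probe sets. Tfrc, the transferrin receptor, was 12.92, 12.93 and 10.44 in reperfused lobes and 12.89, 12.59 and 11.49 in non-ischemic lobes at 6 hr, against 9.16 to 10.41 in the 12 shams, with differences of 2.29 (adjusted p = 0.00109) and 2.51 (adjusted p = 9.84e-05). Against 6 hr shams these were 2.42 (adjusted p = 0.0894) and 2.64 (adjusted p = 0.0214). Slc40a1, the iron exporter ferroportin, was lower in reperfused lobes than in pooled shams (difference −0.73, adjusted p = 0.00344). Hmox2, the constitutive heme oxygenase, was lower in non-ischemic lobes (difference −0.62, adjusted p = 0.00749, or 0.0594 against 6 hr shams), where Hmox1 differed by 0.71 without passing (adjusted p = 0.527).

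Of 17 other antioxidant enzymes, 3 were higher and 5 lower in reperfused lobes at 6 hr, and 1 higher and 4 lower in non-ischemic lobes, beside 16.6% and 13.6% of probe sets. Sod2, the mitochondrial superoxide dismutase, was higher by 0.89 in reperfused lobes than in pooled shams (adjusted p = 0.00169, or 0.57 and 0.118 against 6 hr shams), and Sod3, the extracellular form, was lower (difference −1.18, adjusted p = 0.000278). Sod3 was 7.66 to 8.13 in these lobes against 8.50 to 9.21 in the 6 hr shams. Gpx1, the main cytosolic glutathione peroxidase, was lower in non-ischemic lobes at 2 hr (difference −0.74, adjusted p = 0.0240, or −0.47 and 0.333 against 2 hr shams). Mt1, the metal-binding metallothionein, was higher in shams than in unoperated livers by 1.23 (adjusted p = 0.00384). It lay between 19.48 and 19.93 in every operated array, and the highest value in the whole table was also 19.93, so that 1.23 is a lower bound. Mt1 had 2 probe sets, and its values are from the one with the higher mean. In 14 pairwise comparisons, 6 of 11 regulators, 5 of 12 glutathione and NADPH genes, 8 of 15 conjugation genes, 3 of 12 heme and iron genes and 10 of 17 other antioxidant enzymes passed at least once, beside 31.3% of all probe sets. This share, like the others, is over all 23409 probe sets, of which 10762 had a mean log2 under 5. Most listed genes were brighter, so lists and background are unlike in level.

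**Figure D4:**
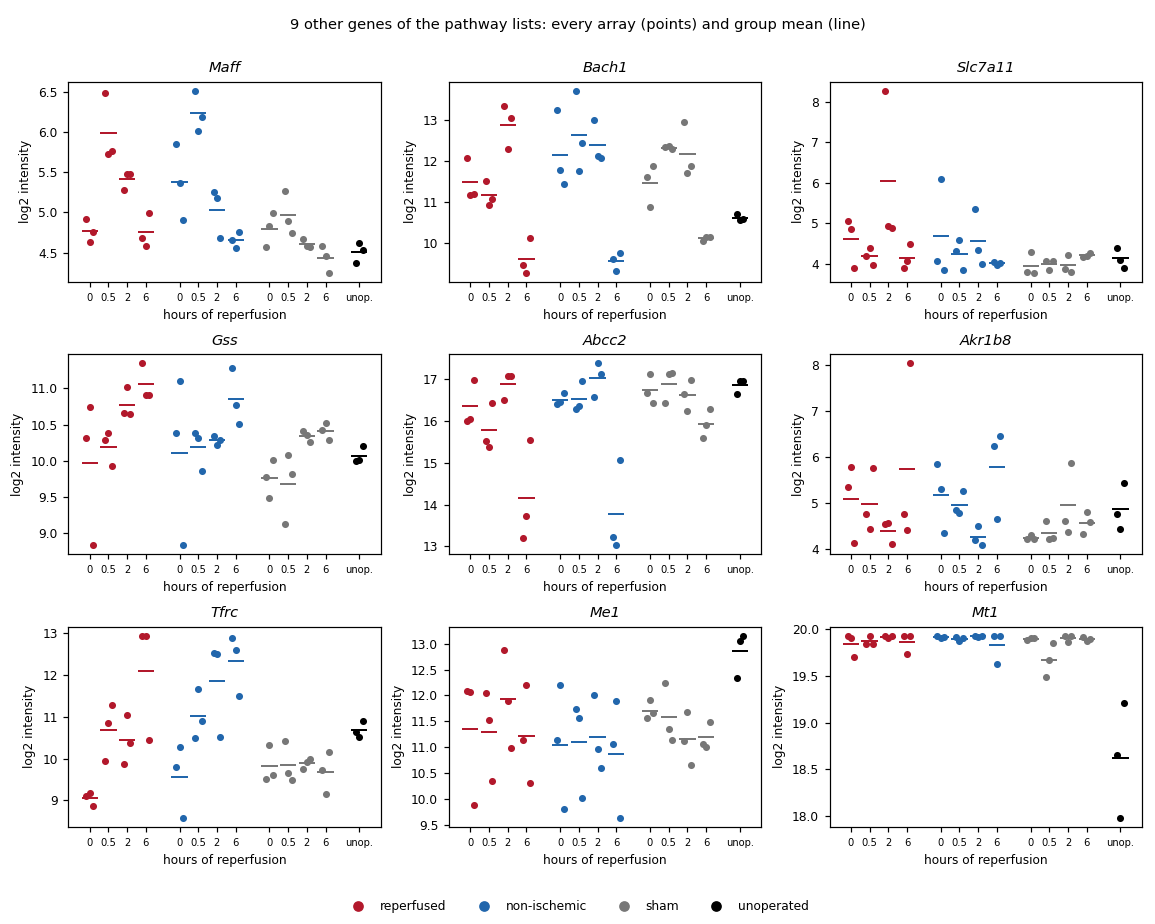
Log2 intensity (vertical axis) of 9 other genes of the pathway lists in every array (points) with group means (lines), by hours of reperfusion, in reperfused lobes, non-ischemic lobes, shams and unoperated livers (unop.). Bach1 was low at 6 hr in all 3 operated groups, at 9.29 to 10.17, and Slc7a11 was high in 1 reperfused array of 2 hr, at 8.27.

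The 9 genes did not share 1 pattern over the 13 group means. The highest Pearson r between 2 of them was 0.79 (Osgin1 and Nfe2l2) and the lowest −0.65 (Hmox1 and Gclm), described over 13 points that share rats and shams. For Hmox1 the genes with the most similar group means were Ptpn1 (r = 0.97), Higd1a (r = 0.96) and Nhsl3 (r = 0.96). For Osgin1 they were Tppp (r = 0.84), Reep6 (r = 0.83) and Abo3 (r = 0.83). Srxn1 came closest to Zfp622 (r = 0.97), RGD1564801 (r = 0.95) and Minpp1 (r = 0.94). Txnrd1 came closest to Ugdh (r = 0.94), Psmd11 (r = 0.94) and Creb3 (r = 0.93), and Gclc to Gpr39 (r = 0.93), Abcc5 (r = 0.88) and Msr1 (r = 0.86). Nqo1 was nearest to Serpina10 (r = 0.95), Prxl2b (r = 0.94) and Narf (r = 0.94). Nfe2l2 was nearest to Kctd2 (r = 0.90), H2ac1 (r = 0.90) and Hmgn3 (r = 0.85), and Keap1 to Magix (r = 0.92), Ankrd42 (r = 0.91) and Cdk5rap1 (r = 0.88). With ranks in place of levels, 0 or 1 of each 3 names stayed.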

How the data were processed

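Per the labels and the study's methods, liver RNA was hybridized to Affymetrix rat gene arrays, and the authors deposited 1 linear intensity per probe set and array, made by signal-space-transformed RMA (Affymetrix Expression Console 1.0). Here log2 was taken of the deposited intensities, with no further normalization. RMA brings arrays to a common distribution, so a shift of all genes in 1 group would not be seen. Of 23409 probe sets, 19778 carried 1 symbol, 419 several and 3212 none. limma 3.58.1 (R 4.3.3, lmFit and eBayes, two-sided) was fitted over all probe sets to the groups compared, with Benjamini-Hochberg adjustment over all of them and a threshold of 0.05. Python 3.11.15 did the rest. The fitting script was tested on simulated data. The genes and lists were chosen with earlier results of these data known. Of each pathway list, up to 4 genes with the largest change among those that passed are named, and the 3 most similar genes are those of highest Pearson r among single-symbol probe sets with a mean of at least 5. Lobes of 1 time and replicate number correlated in their deviations from the group means (r 0.142 to 0.842, 12 pairs), and were taken as lobes of 1 rat. Lobes of 1 number at different times were not compared. A shared rat and a batch carried by replicate number therefore cannot be told apart by these values. Lobes and shams of 1 number, which are different rats, gave −0.232 to 0.178. Whether rats were operated on in batches is not given in the sources used here, and 3 arrays a group limit the precision. Alternatives were an interquartile range filter (used in the study's methods, 11704 probe sets), a filter on dim probe sets, quantile normalization, a trended robust fit, a fit to all 39 arrays, other sets of shams, the replicate block, and leaving out each array.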

Additional observations from a re-analysis of the deposited data

How the results depend on the processing

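Counts are of the 9 genes past the threshold. The fit to all 39 arrays gave 0 in place of 1 between the lobes at 0.5 hr, 2 in place of 0 for reperfused 0 hr against pooled shams (Osgin1 and Keap1), 1 in place of 2 for 6 hr shams against earlier shams, 4 in place of 1 for times within reperfused lobes and 2 in place of 4 for times within shams. Times within reperfused lobes gave 2 with the interquartile range filter, 2 with the dim filter and 2 with the trended robust fit. Shams of the same time gave 0 in place of 3 at 2 hr in each lobe, and 0 with the replicate block too. With the replicate block and shams of the same time, the 6 hr count was 1 in place of 2 in each lobe, as it was with quantile normalization (1 in each). Between lobes and shams this block joins different rats by number alone. The mean lobe difference called 0 in place of 2 with the trended robust fit and 0 with no replicate block. Shams of 6 hr alone against unoperated livers, chosen after seeing the data, gave 6 in place of 2. Against 6 hr shams and without non-ischemic 6 hr replicate 1, likewise chosen after seeing the data, the non-ischemic count was 0 in place of 2. The cause of these changes was not tested.

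Nqo1 turned sign for reperfused 6 hr lobes, at −0.83 against 6 hr shams (−0.83 with the replicate block, −0.59 without replicate 3). It also turned against unoperated livers, at −0.61 with 0 hr shams and −0.52 with 0.5 hr shams alone, and below 0 without sham 6 hr replicate 1, 2 or 3 (−0.0432 to 0.2036 over all arrays left out). Within single times, the replicate block on the lobes left the counts at 0, 1, 0 and 0 at 0, 0.5, 2 and 6 hr.

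Leaving out each array gave 0 to 1 between the lobes at 0.5 hr and 0 to 0 at 0, 2 and 6 hr. Against pooled shams it gave 0 to 0, 0 to 1, 2 to 3 and 1 to 3 for reperfused lobes of 0, 0.5, 2 and 6 hr, and 0 to 0, 0 to 0, 0 to 3 and 1 to 3 for non-ischemic lobes. It gave 1 to 2 for 6 hr shams against earlier shams, 2 to 2 for shams against unoperated livers, 1 to 2, 2 to 4 and 3 to 4 for times within reperfused lobes, non-ischemic lobes and shams, 0 to 2 for the mean lobe difference and 0 to 0 for its change with time. Of the gene-level differences refitted under other alternatives, 225 kept direction and call, 30 lost the call, 20 gained one and 5 turned sign. A second probe set per gene could not be tried, since each gene has 1.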

Other observations

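Gsta3 and Me1, both known Nrf2 targets in rodent liver, had lower ranges in the lobe arrays numbered replicate 3 than in the other lobe arrays. Gsta3 lay between 7.30 and 8.13 in the 8 replicate 3 lobe arrays and between 8.75 and 10.02 in the 16 other lobe arrays, with 7.26 to 8.65 in the 12 shams. Me1 lay between 9.63 and 10.99 in the replicate 3 lobes and between 10.96 and 12.88 in the others, with 10.66 to 12.24 in the shams. The rats of 1 replicate number at different times are different animals, and this pattern was noticed after seeing the data and was not tested.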
